A study of Homo sapiens with 3 samples.

Results

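The SLC25 genes encode the mitochondrial carriers, and they were described here as one family in 293T cells whose LINE-1 antisense promoters were targeted for activation. Members were the gene names made of SLC25A and a number with no hyphen, which gave 45 of the 23284 gene names with values. Of these 45, 37 had a mean of at least 1 FPKM over the libraries, and all 37 also reached 1 FPKM in every library. FPKM counts fragments in relation to transcript length and to the mapped fragments of the library, so that levels can be compared between genes of different length. SLC25A51, SLC25A52 and SLC25A53 are listed under the older names MCART1, MCART2 and MCART6 and were therefore not members.

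RNA-seq was carried out on 293T cells, also called HEK293T, a line derived from human embryonic kidney, which transiently expressed dCas9-VP64 in every condition. dCas9-VP64 joins a Cas9 that has lost its cutting activity to VP64, a domain that activates transcription at the bound site. It was expressed with mock as the control, with sgL1ASP #1 or with sgL1ASP #3, guide RNAs against the antisense promoter of LINE-1, and the question was which transcripts change when that promoter is activated. There was 1 library per condition, so none of the differences has a replicate check, transfected and untransfected cells cannot be told apart, and fewer expressing cells cannot be told apart from less RNA per cell.

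The spacing of low FPKM values put the depth at about 10400000 reads for mock, 10300000 for sgL1ASP #1 and 8700000 for sgL1ASP #3, and the summed FPKM was 619903, 661449 and 673483. Of 9 genes known from 293T cells (intermediate filaments such as VIM and factors of the embryonic kidney), 8 had a mean of at least 1 FPKM and none was at 0, with PAX2 below. Together the 9 summed to 996, 1094 and 1059 FPKM. Of 11 markers of blood, endothelium, fibroblasts, liver, muscle, brown fat and germ line, 2 reached that mean (COL1A1 and ACTA1), and the 11 together summed to 5.76 FPKM in mock, 3.97 with sgL1ASP #1 and 4.78 with sgL1ASP #3. PTPRC, MYH7 and UCP1 were listed at 0 in all 3 libraries.

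Mitochondrial carriers are small proteins of the inner membrane built from repeats that each carry a pair of membrane helices, and most exchange one metabolite of the matrix for another of the cytosol. They supply the respiratory chain and ATP synthase with ADP and phosphate, move citrate, aspartate and glutamate between compartments, and bring in cofactors, nucleotides and iron. Dividing cultured cells rely on them both for ATP and for the export of carbon for biosynthesis.

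The carriers ranged from a listed 0 to 980.2 FPKM, and a few members held most of the signal. SLC25A5 and SLC25A3 together made up 63.7% of the members' summed FPKM in mock, 64.6% with sgL1ASP #1 and 63.2% with sgL1ASP #3. The same 5 genes led in each library, in the order SLC25A5, SLC25A3, SLC25A39, SLC25A1 and SLC25A11. In each library 29 members lay between 5 and 50 FPKM. The family as a whole summed to 2219 FPKM in mock, 2261 with sgL1ASP #1 and 2229 with sgL1ASP #3, which was 0.358%, 0.342% and 0.331% of all FPKM in the library. The 37 members with a mean of at least 1 FPKM had a median level of 15.8, 17.1 and 16.0 FPKM. In each library 38 members were at 1 FPKM or more. Their median was 15.2, 16.6 and 15.9 FPKM, against 12.3, 12.3 and 12.4 FPKM for all genes at 1 FPKM or more in that library.

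**Figure D1:**
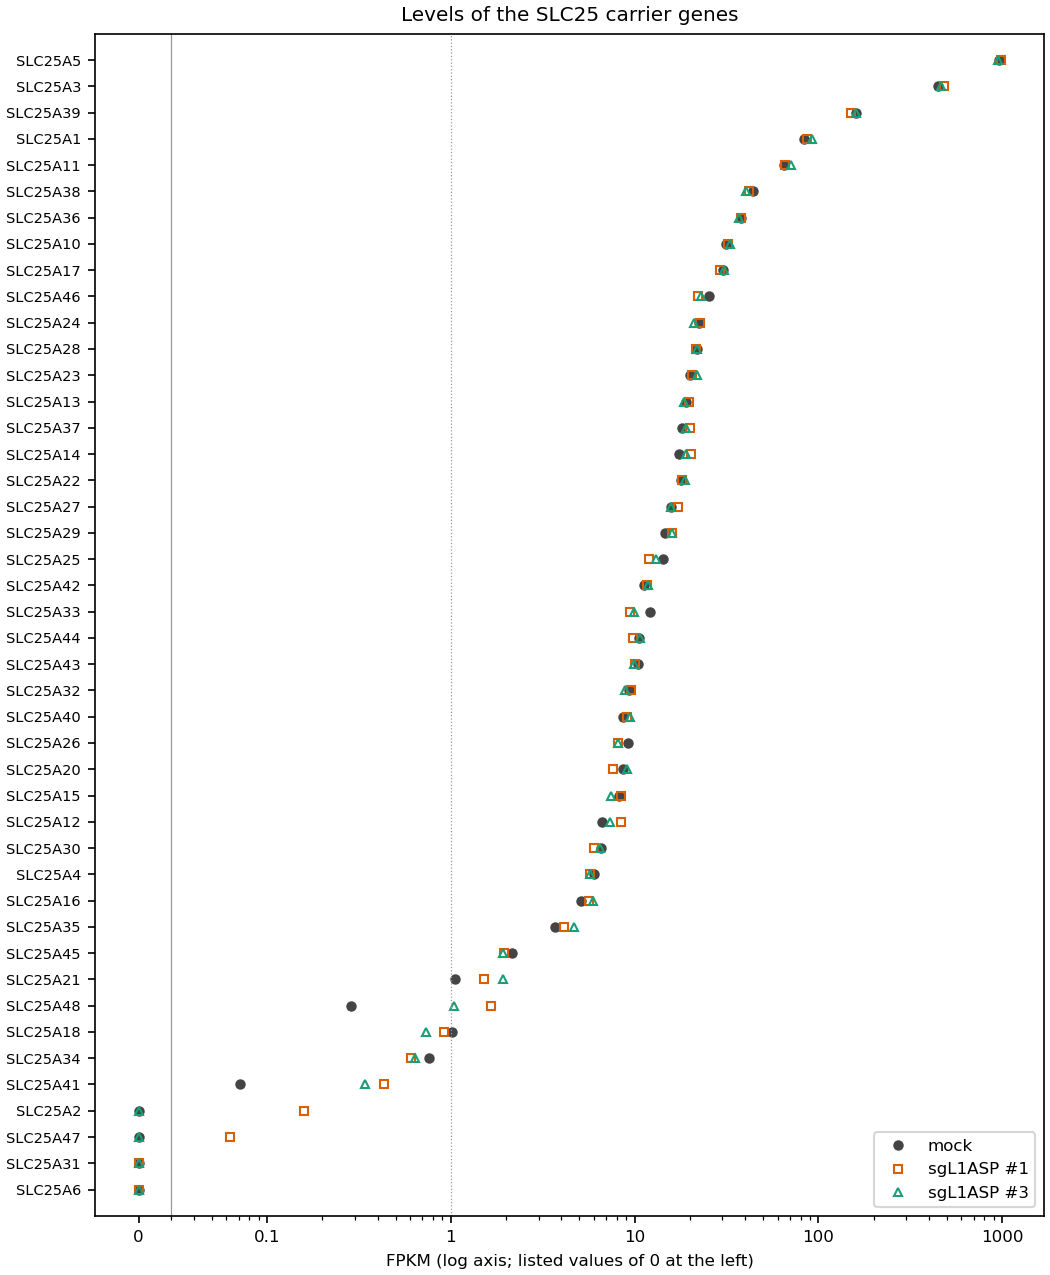
FPKM of the SLC25 genes, 1 of which is not shown, in each library on a log axis, ordered by mean level, with mock as filled circles, sgL1ASP #1 as open squares and sgL1ASP #3 as open triangles, the dotted line at 1 FPKM and listed values of 0 set at the left of the grey line. For most genes the 3 symbols overlap, from SLC25A5 at 965, 980.2 and 946 FPKM downwards, and they part for SLC25A48, SLC25A41 and SLC25A21 near the bottom. They also part for SLC25A2 and SLC25A47, which are above 0 with sgL1ASP #1 only.

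The ADP/ATP carriers, which exchange matrix ATP for cytosolic ADP, were nearly all SLC25A5 in the deposited values. SLC25A5, the form known from dividing cells, was at 965 FPKM in mock, 980.2 with sgL1ASP #1 and 946 with sgL1ASP #3. SLC25A4, the form of heart and skeletal muscle, was at 6.03, 5.70 and 5.68 FPKM, so that SLC25A5 exceeded it 159.9-, 172.0- and 166.5-fold. SLC25A31, known from the testis, was listed at 0 in all 3 libraries, and so was SLC25A6, which is known as a widely expressed carrier. SLC25A5 thereby held 99.4% of the listed ADP/ATP carrier FPKM in every library, and SLC25A4 0.621%, 0.578% and 0.597%. Both shares count SLC25A6 as 0, a value listed in all 3 libraries for 20 of the 21 gene names placed on both X and Y. They are therefore not shares of all ADP/ATP carrier RNA in the cells. SLC25A5 lies on the X chromosome (chrX:118602385-118605359, GRCh37) and SLC25A4 on chromosome 4 (chr4:186064420-186071536). An antisense transcript that overlaps SLC25A5, SLC25A5-AS1, was at 3.05, 3.23 and 3.15 FPKM.

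The coding sequences of the ADP/ATP carriers are related but distinct. How reads were assigned among them was not tested. SLC25A5 and SLC25A6 are identical at 78.7% of 894 aligned coding bases, SLC25A4 and SLC25A6 at 77.9%, SLC25A4 and SLC25A5 at 77.2%, and SLC25A5 and SLC25A31 at 68.9% of 882. The stretch around the RRRMMM signature, the motif by which ADP/ATP carriers are recognised, is shown here for the 4 genes as 78 coding bases, 5′ to 3′, because it is the part that defines the class and still differs between the copies. Capitals mark the 18 bases that encode the signature. The stretches span an intron and run from chr4:186066987-186067978 on the plus strand for SLC25A4, chrX:118604410-118604874 on the plus strand for SLC25A5, chrX:1505642-1506238 on the minus strand for SLC25A6 and chr4:128689982-128694567 on the plus strand for SLC25A31, all in GRCh37.
SLC25A4: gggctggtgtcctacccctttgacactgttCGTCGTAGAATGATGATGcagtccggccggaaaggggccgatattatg
SLC25A5: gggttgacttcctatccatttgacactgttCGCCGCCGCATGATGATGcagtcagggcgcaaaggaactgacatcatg
SLC25A6: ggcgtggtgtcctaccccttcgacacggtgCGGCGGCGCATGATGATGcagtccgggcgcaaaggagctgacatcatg
SLC25A31: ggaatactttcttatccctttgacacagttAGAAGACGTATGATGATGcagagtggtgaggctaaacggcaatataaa

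Even in this conserved stretch SLC25A5 and SLC25A6 differ at 14 of 78 bases, SLC25A4 and SLC25A6 at 15, and SLC25A4 and SLC25A5 at 18. SLC25A31 differs from each of the others at 35 to 37 bases. Over the whole SLC25A5 transcript, 0.568% of windows of the 75-base read length had an exact copy elsewhere in the genome, and none of the windows within its coding sequence did.

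The 0 listed for SLC25A6 was shared by its neighbours. SLC25A6 lies in the pseudoautosomal region, the segment that the X and Y chromosomes share, at chrX:1505045-1511006 and at chrY:1455045-1461006. Its X and Y transcripts, of 1451 bases, differ at 0 bases, and all 1377 of their 75-base windows are shared by both chromosomes. Of 21 gene names that the annotation places on both X and Y, 20 (95.2%) were listed at 0 in all 3 libraries. The exception was PLCXD1, at 0.0225 FPKM with sgL1ASP #3. Among the protein-coding genes of this kind 16 of 17 (94.1%) were at 0, compared with 175 of 713 other protein-coding genes of X (24.5%) and 2857 of 17125 protein-coding genes elsewhere (16.7%). The 20 include CD99, DHRSX and ZBED1, genes known to be broadly expressed, so the 0 of SLC25A6 is given only as listed. Whether reads with more than one placement were left out was not tested.

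SLC25A3, the phosphate carrier that supplies ATP synthase and also carries copper, was the second most abundant member. It was at 449 FPKM in mock, 480.3 with sgL1ASP #1 and 463 with sgL1ASP #3, a log2 change of 0.10 with sgL1ASP #1 and 0.04 with sgL1ASP #3. SLC25A5 exceeded SLC25A3 2.15-fold in mock, 2.04-fold with sgL1ASP #1 and 2.04-fold with sgL1ASP #3.

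The carriers of glutathione and iron followed. SLC25A39, which imports glutathione, was at 159, 151 and 160.1 FPKM, and its relative SLC25A40 was at 8.63, 9.11 and 9.41 FPKM. The mitoferrins, which bring in iron for haem and iron-sulphur clusters, stood close to each other, SLC25A28 at 21.9, 21.7 and 21.8 FPKM and SLC25A37, the form of red cell precursors, at 18.03, 20.01 and 19.003 FPKM. SLC25A28 was thus 1.21-, 1.08- and 1.15-fold above SLC25A37.

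Carriers of di- and tricarboxylates were led by SLC25A1, the citrate carrier that exports carbon for fatty acid synthesis, at 83.5 FPKM in mock, 87.1 with sgL1ASP #1 and 92.8 with sgL1ASP #3. SLC25A11, the 2-oxoglutarate carrier of the malate-aspartate shuttle, was at 64.7, 65.8 and 70.9 FPKM. SLC25A10, the dicarboxylate carrier, was at 31.3, 32.1 and 33.2 FPKM. SLC25A21, the 2-oxodicarboxylate carrier of lysine and tryptophan breakdown, was by far the lowest at 1.05, 1.51 and 1.92 FPKM. In all 4 genes of the class mock was lowest and sgL1ASP #3 highest, and the summed level was 180.5, 186.5 and 198.7 FPKM. This order depended on the scale: with each library set to the same total, 1 of the 4 was above mock with sgL1ASP #1 and 3 of the 4 with sgL1ASP #3.

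Among amino acid carriers SLC25A38, the glycine carrier needed for haem synthesis, was highest at 44.2, 42.1 and 40.3 FPKM. The aspartate/glutamate carriers of the malate-aspartate shuttle were both present, SLC25A13 at 19.03, 19.7 and 18.5 FPKM and SLC25A12 at 6.66, 8.48 and 7.32 FPKM. The ratio of SLC25A13 to SLC25A12 was 2.86 in mock, 2.32 with sgL1ASP #1 and 2.53 with sgL1ASP #3. Of the glutamate carriers, SLC25A22 was at 17.8, 18.1 and 18.8 FPKM and SLC25A18 at 1.01, 0.923 and 0.731 FPKM. SLC25A29, a carrier of basic amino acids, was at 14.7, 16.1 and 16.0 FPKM, and SLC25A44, a carrier of branched-chain amino acids, at 10.5, 9.80 and 10.7 FPKM.

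The ornithine carriers of the urea cycle, SLC25A15 and SLC25A2, are the closest pair among the members, with identical bases at 87.7% of 903 coding positions. SLC25A15, which has 7 exons, was at 8.21, 8.48 and 7.47 FPKM. SLC25A2 has a single exon and was listed at 0 in mock, 0.159 FPKM with sgL1ASP #1 and 0 with sgL1ASP #3, the value with sgL1ASP #1 standing for about 2 reads. No 75-base window of SLC25A2 had an exact copy elsewhere. SLC25A2 lies inside the annotated span of TAF7 on the same strand, which was at 74.2, 73.5 and 70.1 FPKM.

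All 8 members of the class that carries nucleotides and cofactors had a mean of at least 1 FPKM. SLC25A36 and SLC25A33, which carry pyrimidine nucleotides, were at 37.8, 37.8 and 37.1 FPKM and at 12.2, 9.46 and 9.87 FPKM. SLC25A17, a cofactor carrier of peroxisomes rather than mitochondria, was at 30.1, 29.0 and 30.6 FPKM. SLC25A26, which imports S-adenosylmethionine, was at 9.25, 8.13 and 8.13 FPKM, and SLC25A42, a coenzyme A carrier, at 11.3, 11.7 and 11.8 FPKM. SLC25A32, linked to folate and flavin transport, was at 9.33, 9.56 and 8.90 FPKM, and SLC25A16, proposed to act on coenzyme A, at 5.09, 5.68 and 5.90 FPKM. Of the 8, SLC25A33 lay furthest below mock with both guides, at ratios of 0.779 with sgL1ASP #1 and 0.812 with sgL1ASP #3. SLC25A26 came next with both, at 0.879 and 0.878.

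The ATP-Mg/phosphate carriers adjust the adenine nucleotide pool of the matrix, 3 of them in response to calcium. SLC25A24 was at 22.4, 22.7 and 21.0 FPKM, SLC25A23 at 19.955, 20.5 and 21.8 FPKM and SLC25A25 at 14.2, 11.9 and 12.997 FPKM. SLC25A41, the form without a calcium-binding part, was at 0.0709, 0.431 and 0.341 FPKM. SLC25A41 lies 2299 bases downstream of SLC25A23 on the same strand of chromosome 19, and its neighbour was many times higher in every library. For SLC25A23 13.3% of the 75-base windows of its transcript had an exact copy, always on chromosome 3 and never within the coding sequence.

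The remaining classes were low to moderate. SLC25A20, which exchanges carnitine and acylcarnitine for fatty acid oxidation, was at 8.65, 7.67 and 9.04 FPKM. The uncoupling protein-like SLC25A14, SLC25A27 and SLC25A30 were at 17.5, 20.3 and 18.9 FPKM, at 15.8, 17.1 and 15.8 FPKM and at 6.55, 6.02 and 6.45 FPKM. SLC25A46, an outer membrane protein linked to mitochondrial dynamics, was at 25.2, 22.1 and 23.0 FPKM. SLC25A43, the neighbour of SLC25A5 at 13.9 kb on the X chromosome, was at 10.4, 10.1 and 9.90 FPKM, so that SLC25A5 exceeded it 92.9-, 97.3- and 95.5-fold. SLC25A35 was at 3.71, 4.14 and 4.69 FPKM and SLC25A45 at 2.16, 1.95 and 1.93 FPKM, the lower of these carriers without a firmly assigned substrate that still had a mean of at least 1 FPKM.

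Just below that mean were SLC25A48, a choline carrier, with a mean of 0.994 FPKM, SLC25A18 with 0.889 FPKM and SLC25A34 with 0.670 FPKM. SLC25A34 was at 0.765, 0.606 and 0.640 FPKM. SLC25A47, known from liver, was listed at 0, 0.0632 and 0 FPKM, its single value above 0 standing for about 1 read. In all, 4 members were listed at 0 in mock, 2 with sgL1ASP #1 and 4 with sgL1ASP #3, and SLC25A6 and SLC25A31 were so in every library.

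Changes against mock were taken as the log2 difference of FPKM + 0.1, which understates the change of low genes, and a gene was called past 1.5-fold, the fold the study used. The study's rule was a rise by that fold from mock to sgL1ASP #3 and again from sgL1ASP #3 to sgL1ASP #1. Here each comparison was called by itself. Both guides were compared with the same mock library, so the pair of comparisons is not independent. Of the 37 members with a mean of at least 1 FPKM, 0 were higher and 0 lower past 1.5-fold with sgL1ASP #1, where 1.76% of all genes at that mean were higher and 1.79% lower. With sgL1ASP #3 1 member was higher, SLC25A21, and 0 were lower, beside 1.75% and 2.05% of all genes. Between the guides 0 members were higher and 0 lower with sgL1ASP #1 than with sgL1ASP #3, beside 1.96% and 1.82%. With both guides 0 members were higher than mock and 0 lower, and 0.678% of all genes were so in each direction. At these shares of all genes fewer than 1 of 37 members would lie past the fold in a direction, so the counts for the members were close to the background.

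**Figure D2:**
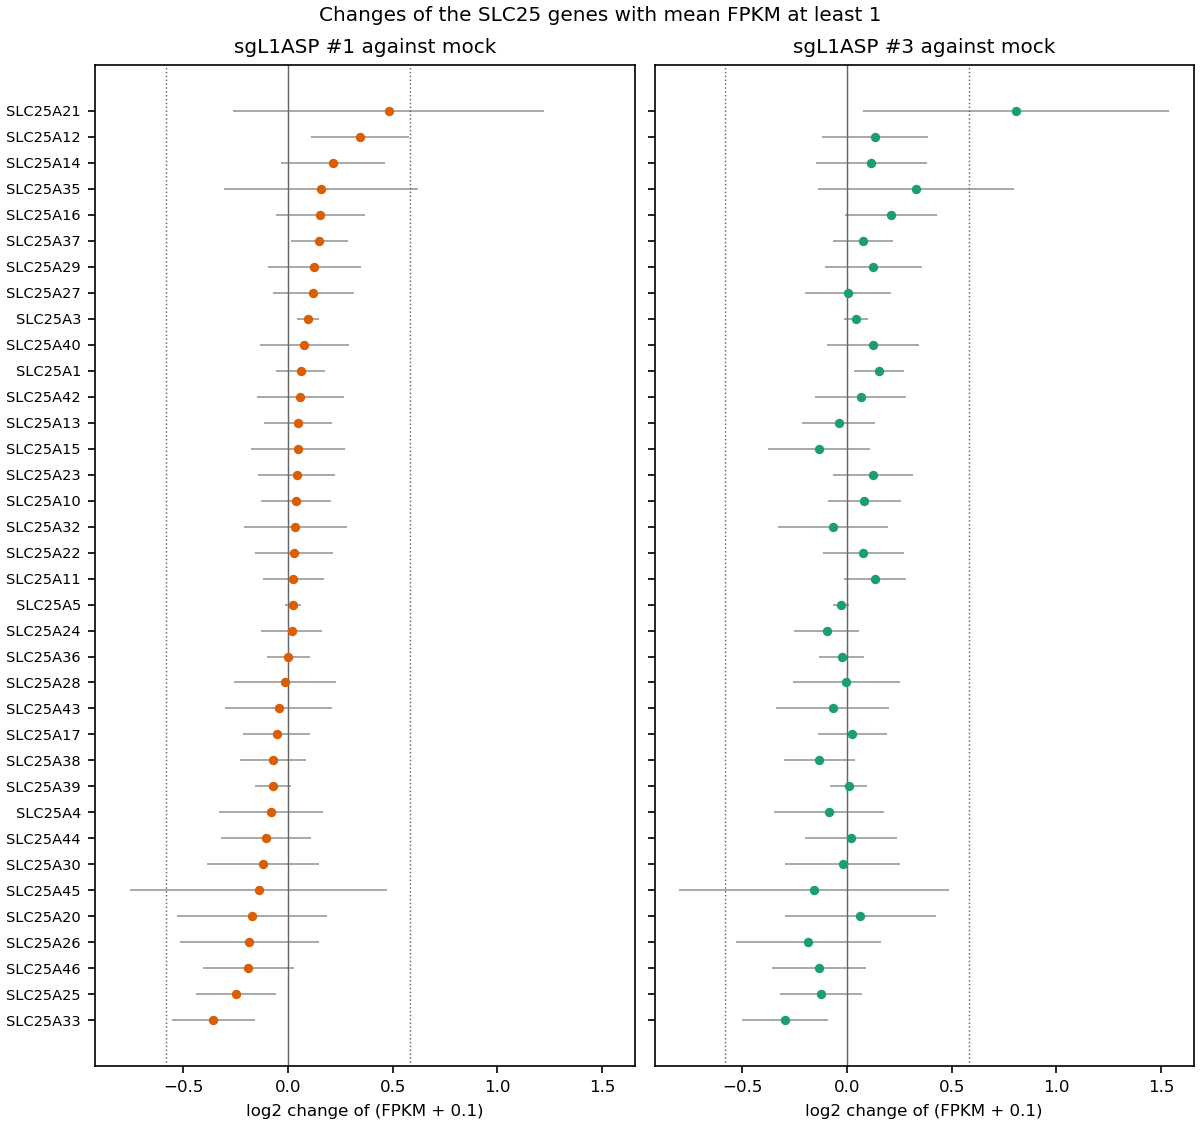
Log2 change of FPKM + 0.1 against mock for the SLC25 genes with mean FPKM of at least 1, with 1 of the 37 not shown, sgL1ASP #1 at the left and sgL1ASP #3 at the right, bars of the 95% counting interval and dotted lines at 1.5-fold. SLC25A21 with sgL1ASP #3, at 0.81, is the only point outside the dotted lines, and SLC25A33 has the lowest point in both panels, at -0.36 and -0.30.

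The typical member moved about as little as the typical gene. The median log2 change of the 37 members was 0.025 with sgL1ASP #1 and 0.0085 with sgL1ASP #3, and that of all genes was 0.00085 and 0.0015. The median size of the change was 0.081 for the members against 0.094 for all genes with sgL1ASP #1, and 0.085 against 0.095 with sgL1ASP #3. With sgL1ASP #1 25 members (67.6%) lay within 1.1-fold of mock, and with sgL1ASP #3 30 members (81.1%), against 64.9% and 64.8% of all genes. Above mock were 22 of 37 members with sgL1ASP #1 and 21 of 37 with sgL1ASP #3. That majority depended on the scale. With the libraries set to the median ratio of their genes it was again 22 and 21, but with each library set to the same total, the median of all genes moved to -0.092 with sgL1ASP #1 and -0.12 with sgL1ASP #3, and 9 of 37 members were above mock in each. Relative to those shifts the members' median was 0.023 and 0.0059. The totals include genes with extreme values. Log2 changes of all genes ran from -15.9 to 17.7 with sgL1ASP #1 and from -15.9 to 16.9 with sgL1ASP #3. How far such genes set the totals was not tested.

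**Figure D3:**
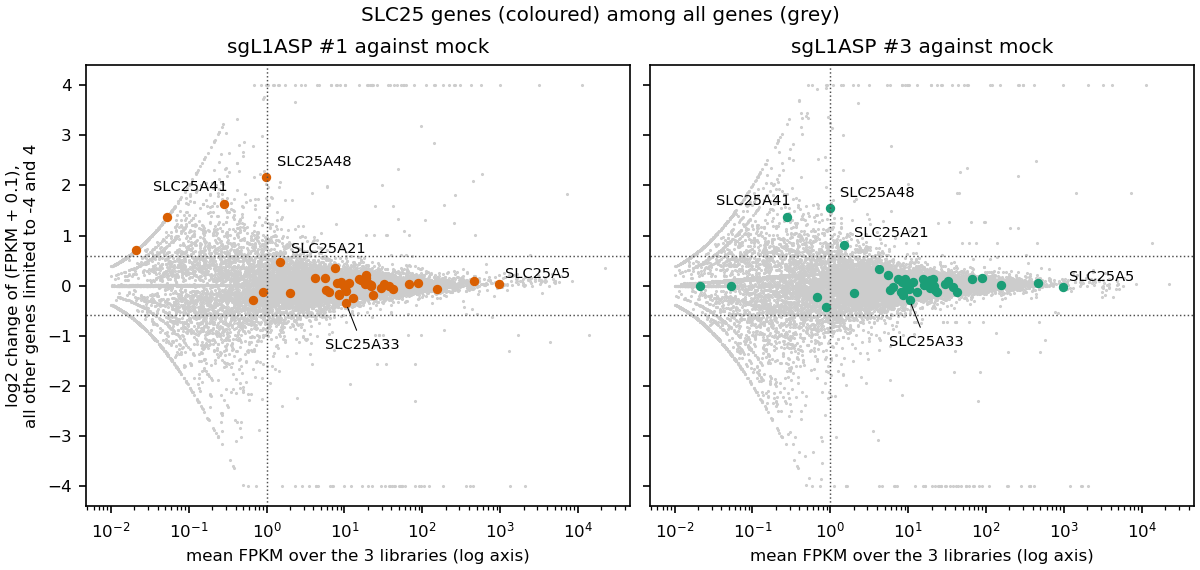
Log2 change of FPKM + 0.1 against mock over the mean FPKM of the 3 libraries (log axis), with all genes in grey, SLC25 genes in colour (1 not picked out), genes with a mean under 0.01 FPKM left out, changes of other genes limited to -4 and 4, and dotted lines at a mean of 1 FPKM and at 1.5-fold. Right of the vertical line the coloured points lie within the grey band, SLC25A21 with sgL1ASP #3 being the one past 1.5-fold, and the wide changes of SLC25A48 and SLC25A41 lie left of it.

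A 95% counting interval was then set around no change for each gene, from reads estimated as FPKM times transcript length times depth. It compares the libraries and not the conditions, since it holds no spread between cultures. Of the 37 members, 3 were higher with sgL1ASP #1 than in mock past this interval (SLC25A12, SLC25A3 and SLC25A37) and 2 were lower (SLC25A25 and SLC25A33), where 7.33% and 5.8% of all genes were. With sgL1ASP #3 2 members were higher (SLC25A1 and SLC25A21) and 1 was lower (SLC25A33), beside 6.53% and 5.02%. Between the guides 1 member was higher with sgL1ASP #1 (SLC25A5, by 0.05) and 0 were lower, beside 5.53% and 5.85%. With each library set to the same total, the split became 1 higher and 6 lower with sgL1ASP #1 and 0 higher and 10 lower with sgL1ASP #3. On that scale the shares of all genes were 2.13% higher and 22.2% lower with sgL1ASP #1 and 0.978% higher and 25.9% lower with sgL1ASP #3, so the members' split followed that of all genes. SLC25A33 was below mock with both guides on either scale.

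SLC25A21 rested on few reads. Its levels of 1.05 FPKM in mock, 1.51 with sgL1ASP #1 and 1.92 with sgL1ASP #3 stood for about 25, 35 and 38 reads, with mock lowest. The change was 0.48 with sgL1ASP #1 and 0.81 with sgL1ASP #3, and the ratio to mock with its exact 95% counting interval was 1.43 (0.825 to 2.47) and 1.82 (1.07 to 3.16). The gene (chr14:37147126-37641811, GRCh37) overlaps PAX9 on the opposite strand, which was at 2.59, 2.96 and 2.61 FPKM, and reads were counted by strand per the study's methods.

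SLC25A33 was the lowest of the 37 with both guides. It was at 12.2 FPKM in mock, the highest of the 3 libraries, and at 9.46 with sgL1ASP #1 and 9.87 with sgL1ASP #3, or about 465, 357 and 314 reads. The ratio to mock was 0.779 (0.676 to 0.895) with sgL1ASP #1 and 0.812 (0.701 to 0.939) with sgL1ASP #3, and the levels with the guides were close to each other. SLC25A36, of the same substrate class, was 3.11-fold above it in mock and 3.999- and 3.76-fold above it with sgL1ASP #1 and sgL1ASP #3. The transcript of SLC25A33 (chr1:9599524-9645231, GRCh37) had the largest share of repeated windows in the genome searched, in which the Y copy of SLC25A6 is masked. Of its 3791 windows of 75 bases 733 (19.3%) had an exact copy elsewhere, with up to 83 copies of a window. Within the coding sequence 535 of 889 windows (60.2%) had such a copy. The part of such copies in the change was not tested.

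The search found no repeated window in 36 members, among them SLC25A6, whose windows are all shared by X and Y, and more than 2.32% in SLC25A33 and SLC25A23 only.

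SLC25A12 had the second highest change of the 37 with sgL1ASP #1, after SLC25A21. Its 6.66, 8.48 and 7.32 FPKM stood for about 260, 326 and 237 reads, and the change was 0.34 with sgL1ASP #1 and 0.13 with sgL1ASP #3. The ratio of sgL1ASP #1 to mock was 1.27 (1.08 to 1.501). HAT1, which overlaps it on the opposite strand, was at 76.4, 72.7 and 71.0 FPKM. SLC25A14 followed with 0.21 and 0.12.

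At the other end with sgL1ASP #1 were SLC25A25, at -0.25 and -0.12, and SLC25A46, at -0.19 and -0.14. With sgL1ASP #3 SLC25A35, at 0.33, and SLC25A16, at 0.21, came after SLC25A21, and SLC25A26, at -0.19, and SLC25A45, at -0.16, after SLC25A33. None of these 6 lay past the 95% counting interval in the comparison with sgL1ASP #3, and of them SLC25A25 did with sgL1ASP #1. That rests on the median transcript length, which for SLC25A46 was 1596 bases, against 4745 for its canonical transcript. With canonical lengths 3 of the 37 members were higher and 3 lower past the interval with sgL1ASP #1. With sgL1ASP #3 4 were higher and 2 lower on those lengths.

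Below a mean of 1 FPKM the changes were wide and the reads few. Over all 45 members 4 were higher than mock past 1.5-fold with sgL1ASP #1 (SLC25A2, SLC25A41, SLC25A47 and SLC25A48) and 0 were lower, beside 4.61% and 4.69% of all 23284 genes. With sgL1ASP #3 3 were higher (SLC25A21, SLC25A41 and SLC25A48) and 0 were lower, beside 4.38% and 5.18%. Between the guides 3 were higher with sgL1ASP #1 (SLC25A2, SLC25A47 and SLC25A48) and 0 were lower, beside 5.15% and 4.62%. With both guides 2 were higher, SLC25A48 and SLC25A41, and 0 were lower, beside 1.73% and 2.28%. The shares of all genes include 5642 names (24.2%) listed at 0 in every library, which cannot be called. Among the members 2 of 45 (4.44%) were so listed.

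SLC25A48 (chr5:134812603-135225459, GRCh37) had the widest change of all members on the scale of log2(FPKM + 0.1), although the plain FPKM ratio of SLC25A41 was wider. It was at 0.288 FPKM in mock, 1.65 with sgL1ASP #1 and 1.04 with sgL1ASP #3, or about 5, 27 and 14 reads, so that mock was lowest. The log2 change was 2.18 with sgL1ASP #1 and 1.55 with sgL1ASP #3, and the ratio to mock was 5.74 (2.08 to 18.2) and 3.61 (1.15 to 11.9). Between the guides the ratio was 1.59 (0.823 to 3.35), an interval that includes 1. The annotated span of SLC25A48 also holds NEUROG1 and CXCL14 on the opposite strand, both listed at 0 in all 3 libraries.

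SLC25A41 had a wide change that stood on a handful of reads. About 1 read in mock stood against 6 with sgL1ASP #1 and 4 with sgL1ASP #3. The ratio was 6.08 with an interval of 0.737 to 279.6 with sgL1ASP #1, and 4.81 with an interval of 0.476 to 236.9 with sgL1ASP #3. A difference of SLC25A41 from mock was therefore not detectable at this depth.

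Genes that work beside the carriers were read from lists in the same way. All 10 genes of the TIM22 pathway, which inserts carriers into the inner membrane, had a mean of at least 1 FPKM and 0 lay past 1.5-fold, with median log2 changes of 0.013 with sgL1ASP #1 and 0.032 with sgL1ASP #3. TIMM8A, a chaperone of the intermembrane space, had the widest change among them, at 30.9, 38.9 and 37.5 FPKM. Of 8 relatives of the family, UCP2 was at 21.2, 24.4 and 23.9 FPKM, MTCH1, of the outer membrane, at 129, 134 and 123 FPKM, and MCART1, the mitochondrial NAD carrier, at 8.58, 8.99 and 9.28 FPKM, while UCP1, the uncoupling protein of brown fat, and MCART2 were listed at 0 throughout. The mitochondrial pyruvate carrier, which belongs to another family, was at 53.2, 58.2 and 60.0 FPKM for BRP44L and 15.8, 16.2 and 18.5 FPKM for BRP44. The porins VDAC1, VDAC2 and VDAC3 summed to 229.9, 237.5 and 234.6 FPKM.

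Promoter sequences from RefSeq for GRCh38.p14, 250 bases before to 50 bases after the start, matched 37 of the 45 members, 31 of them with a mean of at least 1 FPKM. These 31 held a median of 27 CpG in the 300 bases, as did the 8935 genes at that mean. The letters CCAAT stood on either strand in 16 of the 31 (51.6%), against 37.3% of the genes at that mean, and the ETS motif CCGGAAGT in 3 (9.68%), against 9.10%. TATAAA stood in 2 (6.45%), against 5.19%, and the NRF1 motif GCGCATGCG in 0, against 3.81%. None of these 4 motifs contains another, and a match is a description of the letters and not a site.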

How the data were processed

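The 3 RNA-seq libraries (mock, sgL1ASP #1 and sgL1ASP #3, all with dCas9-VP64 in 293T cells) were analysed from 1 table of FPKM each. The authors prepared stranded mRNA libraries, sequenced them as single-end reads of 75 bases and calculated the deposited FPKM per gene in a strand-specific mode. The submitters' processing notes name TopHat2 2.0.13, Bowtie2 2.2.3, SAMtools 0.1.19, Cufflinks 2.2.1 and hg19. The gene annotation, the treatment of reads with several placements and the scaling between libraries are not given in the sources used here. Without the last, levels in different libraries may carry a difference of scale, and alternatives with other scalings were tried.

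FPKM were used as deposited. Changes were log2 differences of FPKM + 0.1, called past 1.5-fold among genes with a mean of at least 1 FPKM (12830 genes), and no test was made because there are no replicates. Alternatives were pseudocounts of 0.01 and 1, no filter, a mean of at least 10, a 2-fold threshold, and rescaling to a sum of 1000000 or to the median ratio. Every member could be named, and values in every library were given for nearly all; 1 member is not reported here by itself but stays in the counts and sums. The members, the substrate classes and the lists of other genes were chosen with earlier results of these data known.

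Depth was estimated from the spacing of low values in genes with 1 transcript longer than 1000 bases (955 genes in mock, 1001 with sgL1ASP #1 and 954 with sgL1ASP #3, with 40, 61 and 48 of them in the peak that gave the estimate), after taking 200 bases for a fragment. Estimated reads used the median length of a gene's basic coding transcripts. Exact binomial intervals of read ratios and the counting intervals of log2 changes (1.96 counting standard errors) cover counting error only and rest on these estimates. The latter could be computed for 10942 genes. Coordinates were taken from GENCODE 44 in its GRCh37 version, the assembly that hg19 also names. Windows of the canonical transcripts were searched on both strands of GRCh37, where the Y copy of SLC25A6 is masked. Whether that copy was masked in the hg19 sequence used for mapping is not given in the sources used here. The software was Biopython 1.88, SciPy 1.17.1, pandas 2.3.3, NumPy 2.4.6 and matplotlib 3.10.9 under Python 3.11.15.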

Additional observations from a re-analysis of the deposited data

How the results depend on the processing

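No paired analysis was possible because there is only 1 library of each condition. The number of SLC25 genes past 1.5-fold was 4 in place of 0 for sgL1ASP #1 against mock, 3 in place of 1 for sgL1ASP #3 against mock, 3 in place of 0 between the guides and 2 in place of 0 for both guides once genes under a mean of 1 FPKM were included. For sgL1ASP #3 against mock it was 0 at a mean of at least 10 FPKM, at a 2-fold threshold and at a pseudocount of 1, SLC25A21 then lying within the threshold or outside the filter. Neither rescaling moved these counts by over 1.5 times. Counts past the 95% counting interval and their alternatives were chosen after seeing the data: for sgL1ASP #3 against mock 3 became 6 with the canonical transcript length and 10 with each library set to the same total, and between the guides 1 became 2 with the canonical length and with either rescaling. By estimated reads the SLC25A4 share of the ADP/ATP carriers was 2.33% in mock, 2.17% with sgL1ASP #1 and 2.24% with sgL1ASP #3. This was in place of 0.621%, 0.578% and 0.597% of FPKM, the SLC25A4 transcript being the longer. Both shares count SLC25A6 at its listed 0. Of 312 changes of single members recomputed, 6 moved by over 1.5-fold and none past the threshold turned direction: SLC25A48 lay at 1.04 and 0.66 with a pseudocount of 1, and SLC25A41 lay at 2.45 and 2.12 with a pseudocount of 0.01 and at 0.42 and 0.32 with a pseudocount of 1. The depth limits members under a mean of 1 FPKM most, where a gene stands on 27 reads or fewer.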
